A study of Mus musculus with 12 samples.

Results

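The 10 genes described here, Il7r, Dntt, Rag1, Rag2, Ighm, Vpreb1, Igll1, Cd79a, Cd79b and Blnk, mark lymphoid priming and the first steps of B cell development. They are 10 of the 12393 genes named on the MOE430A array, and every probe set annotated to 1 of their symbols was taken, which gave 29 probe sets, 24 of them annotated to that gene alone and 5 to further genes as well. Ighm had 15 probe sets, 11 alone and 4 shared, whereas Rag1, Rag2, Cd79a, Cd79b and Blnk had 1 each. The genes were chosen by name, with earlier results of these arrays known.

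RNA came from mouse bone marrow cells sorted as Sca-1+, Lin- and GFP+, a fraction enriched for stem and progenitor cells, 3 arrays for each of 4 groups. The groups were cells transduced with ND13 (NUP98-HOXD13), a leukemia-associated fusion of a nucleoporin with a HOX protein, with NA10 (NUP98-HOXA10), a related fusion, with ND13(N51S), which carries a mutation in the DNA-binding homeodomain, or with the GFP vector alone (GFP control). All vectors were MSCV retroviruses that express EGFP from an internal ribosome entry site, so that the cells of every group carried an integrated vector and each sample was a pool of many transduced cells. All marrow was from F1 mice of C57Bl/6Ly-Pep3b and C3H/HeJ parents, older than 12 weeks, which had received 5-fluorouracil at 150 mg/kg 4 days before harvest; the cells were prestimulated for 48 hours with hIL-6 (10 ng/mL), IL-3 (6 ng/mL) and mSF (100 ng/mL), kept for 2 days with irradiated GP+E86 producer cells, and cultured for 24 hours more. The lineage antibodies included B220, the CD45 form carried by B lineage cells, and CD4, CD5 and CD8, so that committed B and T cells were sorted away.

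B cell development starts from lymphoid-primed progenitors, which first express the recombination machinery and the interleukin-7 receptor. RAG1 and RAG2 then cut the immunoglobulin heavy chain locus, terminal transferase (Dntt) adds nucleotides at the joints, and a productive mu heavy chain (Ighm) is displayed with the surrogate light chain (Vpreb1 and Igll1) and the signalling pair CD79a and CD79b as the pre-B cell receptor, upstream of the adaptor BLNK. Transcripts of the unrearranged mu constant region are known to be made before any recombination, so that a signal for Ighm alone does not mark a cell with a heavy chain.

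The promoters of Il7r and Vpreb1, which were among the members with the widest differences between groups, are shown with that of Igll1, the neighbouring gene of Vpreb1 on chromosome 16. They run 250 bases before to 50 bases after the annotated start in RefSeq (GRCm38.p6), on the minus strand and given 5′ to 3′, and lie at chr15:9529827-9530126 (Il7r), chr16:16869206-16869505 (Vpreb1) and chr16:16863936-16864235 (Igll1). Capitals mark matches on either strand to the E-box CANNTG, the type of site bound by E proteins such as E2A, or to CCCNNGGG, the core of the site bound by EBF1.
Il7r: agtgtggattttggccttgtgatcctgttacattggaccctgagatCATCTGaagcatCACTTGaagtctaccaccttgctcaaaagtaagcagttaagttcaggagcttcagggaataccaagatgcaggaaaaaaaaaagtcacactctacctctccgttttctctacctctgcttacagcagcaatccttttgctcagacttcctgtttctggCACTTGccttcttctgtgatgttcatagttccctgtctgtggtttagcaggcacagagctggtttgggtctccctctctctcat
Vpreb1: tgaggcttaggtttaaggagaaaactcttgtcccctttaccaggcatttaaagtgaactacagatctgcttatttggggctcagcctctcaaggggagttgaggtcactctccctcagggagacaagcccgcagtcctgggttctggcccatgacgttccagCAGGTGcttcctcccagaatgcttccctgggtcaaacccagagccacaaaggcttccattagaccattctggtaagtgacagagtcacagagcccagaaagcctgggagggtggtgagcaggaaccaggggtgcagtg
Igll1: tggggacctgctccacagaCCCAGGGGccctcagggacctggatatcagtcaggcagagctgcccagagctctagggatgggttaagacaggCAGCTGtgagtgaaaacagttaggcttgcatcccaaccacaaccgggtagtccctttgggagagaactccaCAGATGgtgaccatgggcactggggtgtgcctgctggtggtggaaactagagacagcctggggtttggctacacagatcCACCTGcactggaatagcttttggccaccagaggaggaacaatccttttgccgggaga
Il7r and Igll1 held 3 E-boxes each and Vpreb1 held 1, and the E-box occurred in 72.3% of 32851 promoters of the same length. Igll1 alone of these 3 held a match to CCCNNGGG, at -231 from the start, which 13.7% of promoters held. The HOX and PBX site TGATNNAT, found in 8.85% of promoters, matched none of the 3 and of the other members matched only Rag1, at -33. No 2 of the matches printed here overlap. Promoter entries were matched for 8 of the 10 members, with none for Ighm and Cd79b.

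The signals are MAS5 intensities on a linear scale, and the background of an array is the 95th percentile of its 27 bacterial control probe sets, 28.5 to 69.8. ND13 replicate 3 had the highest background. The array of ND13(N51S) replicate 2 had a Gapdh 3'/5' ratio of 48.9, against at most 2.71 on the other 11 arrays, and the experiment record held for GFP control replicate 1 names another cell source than its label, a GFP-negative fraction from a culture with ND13(N51S); the label was kept. Where leaving out 1 or both of these arrays moved by over 1.5 times a difference described below that is past an unadjusted p of 0.05 or is of Ighm 1427351_s_at, the value without them is given. Among markers of the gate, Kit, the stem cell factor receptor of progenitors, and Ptprc, which encodes CD45, were above background on all 12 arrays, as was the myeloid granule gene Mpo, at 2205 to 12195. Of the 15 T cell marker genes measured, Cd3d, Cd4, Cd2 and Bcl11b were above background on no array, whereas Lat and Zap70 were on all 12, Cd8a on 10 and Cd5 on 8. Of the B cell genes, Pax5 and Ebf1 were above background on no array, while 7 of 11 surface markers were on all 12. These were Cd22, Cd24a, Cd72, Cd74, Cd37, Cd53 and Ptprc, the last also a marker of the gate. The other Cd22 probe set was above background on no array.

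Most of the 29 probe sets were dim. 5 lay above background on all 12 arrays (3 of Ighm, 1 of Il7r and that of Cd79b), 12 on 6 to 11 arrays, 9 on 1 to 5 and 3 on none. The number of member probe sets above background per array was 8 to 15 in ND13, 12 to 18 in NA10, 13 to 16 in ND13(N51S) and 17 to 22 in the GFP control. The lowest count came from ND13 replicate 3 and the highest from GFP control replicate 1, where 63.8% and 78.2% of all probe sets lay above background, and the part of background in this order was not tested.

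**Figure D1:**
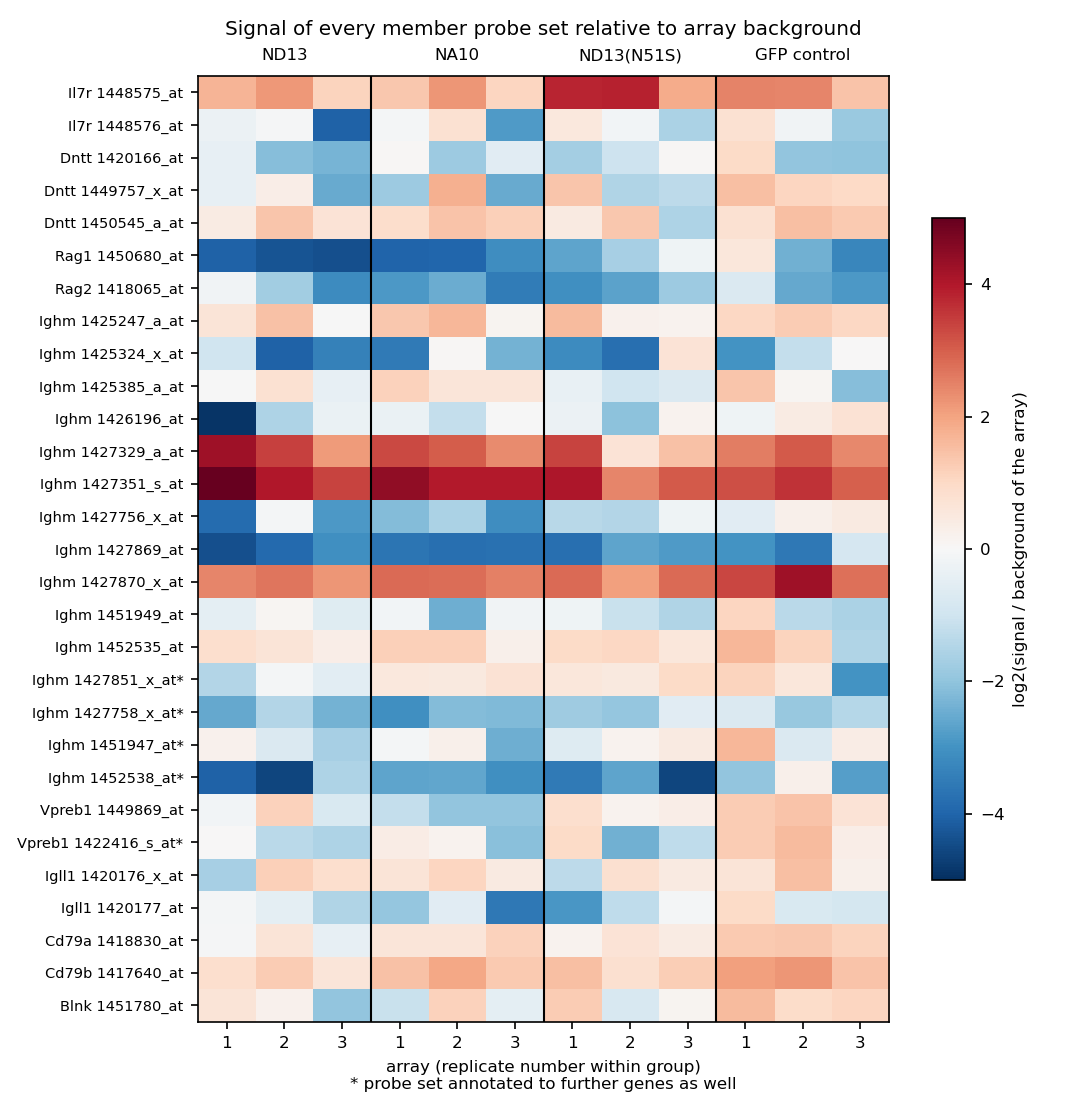
Signal of each of the 29 member probe sets (rows) on each of the 12 arrays (columns, grouped as ND13, NA10, ND13(N51S) and GFP control), as log2 of signal over the background of that array; red is above and blue below background. Ighm 1427351_s_at, 1427329_a_at and 1427870_x_at, Il7r 1448575_at and Cd79b 1417640_at are red on all 12 arrays, whereas Rag1 and Rag2 are blue on nearly all.

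No member passed the test (adjusted p under 0.05 and at least 1.5-fold) in any of the 7 comparisons of the limma fit. Over all 22626 probe sets 0.084% were called higher and 0.00442% lower in ND13 than in the GFP control, 0.0133% higher and 0.0% lower in NA10 than in the GFP control, and 0.0% in either direction in ND13(N51S) against the GFP control. For ND13 against ND13(N51S) the shares called were 0.0133% higher and 0.0% lower, for NA10 against ND13(N51S) 0.00442% each way, for ND13 against NA10 0.0177% higher and 0.0% lower, and for both active fusions (ND13 and NA10) against both other groups 0.0354% higher and 0.0% lower. At an unadjusted p under 0.05 the 7 comparisons together held 22 member results in the limma fit and 18 in the methods' t-test, which made 0 calls after adjustment, and with the replicate number as a block the limma fit held 21, also with 0 calls. The paper ran its own test on values from a different normalisation, GC-RMA, at p under 0.05, and names no adjustment. The version used here ran on MAS5 signals, so neither its counts nor its 0 calls repeat the study's own analysis. In the values below, "past the unadjusted thresholds" means an unadjusted p under 0.05 with at least a 1.5-fold difference, and no such difference is a call.

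Il7r encodes the alpha chain of the interleukin-7 receptor, on which mouse B lymphopoiesis depends. Its brighter probe set, 1448575_at, read 703, 755 and 171 in ND13(N51S), against 164, 154 and 111 in the GFP control. In ND13 it read 164, 183 and 151, and in NA10 92.1, 173 and 87.9. Replicates 1 and 2 of ND13(N51S) stood far above the other 10 arrays, and replicate 3 of that group lay within the range of ND13. The mean was 543 ± 323 in ND13(N51S), 166 ± 16.0 in ND13, 118 ± 48.1 in NA10 and 143 ± 28.2 in the GFP control (SD, n = 3 each), and the arrays of ND13, NA10 and the GFP control overlapped. The log2 fold change of ND13(N51S) over the GFP control was 1.67 ± 0.48 (SE; limma adjusted p = 0.45, and 0.15 with the replicate block). Against ND13(N51S), ND13 differed by -1.44 ± 0.48 (adjusted p = 0.50, and 0.20 with the block) and NA10 by -2.01 ± 0.48 (adjusted p = 0.31, and 0.11 with the block). Leaving out ND13(N51S) replicate 3 made all 3 of these differences calls, at log2 fold changes of 2.37 (adjusted p = 0.024), -2.14 (0.033) and -2.70 (0.012), so the outcome rests on 1 array. Without the 2 arrays in doubt, of which ND13(N51S) replicate 2 is 1, they were 1.41, -1.07 and -1.63 (adjusted p = 0.73, 0.71 and 0.44). The markers of T cells, which also use this receptor, summed to 1669 to 1714 in ND13(N51S), against 1170 to 1448 in the GFP control. Of the 22 T cell probe sets, 1 was past the unadjusted thresholds higher in ND13(N51S) than in the GFP control. Of the 2 Cd8a probe sets, 1 read 95.6, 77.8 and 144 in ND13(N51S), all above background, against 74.9, 43.2 and 47.0 in the GFP control. In contrast, Cd3d, Cd4, Cd2 and Bcl11b were above background on no array, and the part of such cells in the Il7r signal was not tested. In such bulk samples a change in the number of cells of a type and a change in RNA per cell cannot be told apart.

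The other Il7r probe set, 1448576_at, was above background on few arrays and read 4.22 to 73.4 over the series. Its correlation with 1448575_at over the 12 arrays was r = 0.54. The genes whose pattern over the 12 arrays was most like that of Il7r, among 9807 compared, were Atox1 (Pearson r = 0.925), Dock5 (0.909) and Abcc5 (0.902).

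The recombination genes were near or below background. Rag1 read 3.01, 2.05 and 3.28 in ND13 and 2.24, 2.46 and 4.85 in NA10. It read 8.16, 16.3 and 41.0 in ND13(N51S), and 42.9, 5.38 and 4.28 in the GFP control. Only GFP control replicate 1 was above its background, and although all 6 arrays of the active fusions lay below those of ND13(N51S), the signals of both were under background, where no fold is given. Rag2 was above background on no array and read between 7.87 and 44.0 in ND13, 4.97, 6.88 and 3.64 in NA10, 5.99, 8.11 and 13.7 in ND13(N51S), and 17.5, 4.82 and 5.64 in the GFP control.

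Dntt encodes terminal deoxynucleotidyl transferase. Its brightest probe set, 1450545_a_at, read 65.9, 107 and 112 in ND13 and 67.8, 101 and 93.9 in NA10. It read 68.8, 131 and 16.3 in ND13(N51S), and 49.3, 80.6 and 102 in the GFP control, so that all groups overlapped. The log2 fold change of ND13 over the GFP control was 0.32 ± 0.63, that of NA10 0.22 ± 0.63 and that of ND13(N51S) -0.48 ± 0.63. A second probe set, 1449757_x_at, read 37.2, 51.4 and 12.2 in ND13, with 1 of the 3 arrays above background, against 81.7, 60.0 and 83.6 in the GFP control.

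Ighm is the mu heavy chain gene. Its probe set 1427351_s_at read 1590, 654 and 733 in ND13 and 787, 589 and 641 in NA10. It read 828, 281 and 398 in ND13(N51S), and 273, 347 and 330 in the GFP control. All 6 arrays of the active fusions lay above all 3 of the GFP control, whereas ND13(N51S) overlapped every other group, with replicate 1 the highest array in each of ND13, NA10 and ND13(N51S). The means were 992 ± 519 in ND13, 672 ± 102 in NA10, 502 ± 288 in ND13(N51S) and 317 ± 38.5 in the GFP control (SD, n = 3 each). The log2 fold change over the GFP control was 1.54 ± 0.39 for ND13 (2.90-fold; limma adjusted p = 0.30, and 0.075 with the replicate block), 1.08 ± 0.39 for NA10 (2.12-fold; adjusted p = 1.0, and 0.42 with the block) and 0.52 ± 0.39 for ND13(N51S) (adjusted p = 0.76).

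Set against the homeodomain mutant, Ighm 1427351_s_at differed by 1.02 ± 0.39 in ND13 (limma adjusted p = 0.57, and 0.26 with the block). In NA10 it differed by 0.56 ± 0.39 (adjusted p = 0.70, and 0.48 with the block), and ND13 differed from NA10 by 0.45 ± 0.39 (adjusted p = 1.0). For both active fusions against the other 2 groups the difference was 1.05 ± 0.27 (adjusted p = 0.29, and 0.092 with the block). Within arrays of the same replicate number, the ratio of ND13 to the GFP control was 5.82, 1.89 and 2.22, and that of ND13 to ND13(N51S) was 1.92, 2.33 and 1.84. The same ratios of NA10 were 2.88, 1.70 and 1.94 to the GFP control, and 0.951, 2.10 and 1.61 to ND13(N51S). Without ND13 replicate 1 the log2 fold change of ND13 over the GFP control was 1.14, that over ND13(N51S) 0.62 and that over NA10 0.05. Without the 2 arrays in doubt the difference of ND13 from the GFP control was 1.43 (adjusted p = 0.36). Against ND13(N51S) it was then 0.67 in ND13 and 0.22 in NA10, against 1.0 in NA10 without ND13(N51S) replicate 1. ND13 differed from NA10 by 0.69 without ND13 replicate 2. The difference of ND13(N51S) from the GFP control was 0.87 without its replicate 2 and 0.08 without its replicate 1. Ighm stands in the study's own list of genes selected on these samples, which is therefore no independent evidence of its direction.

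**Figure D2:**
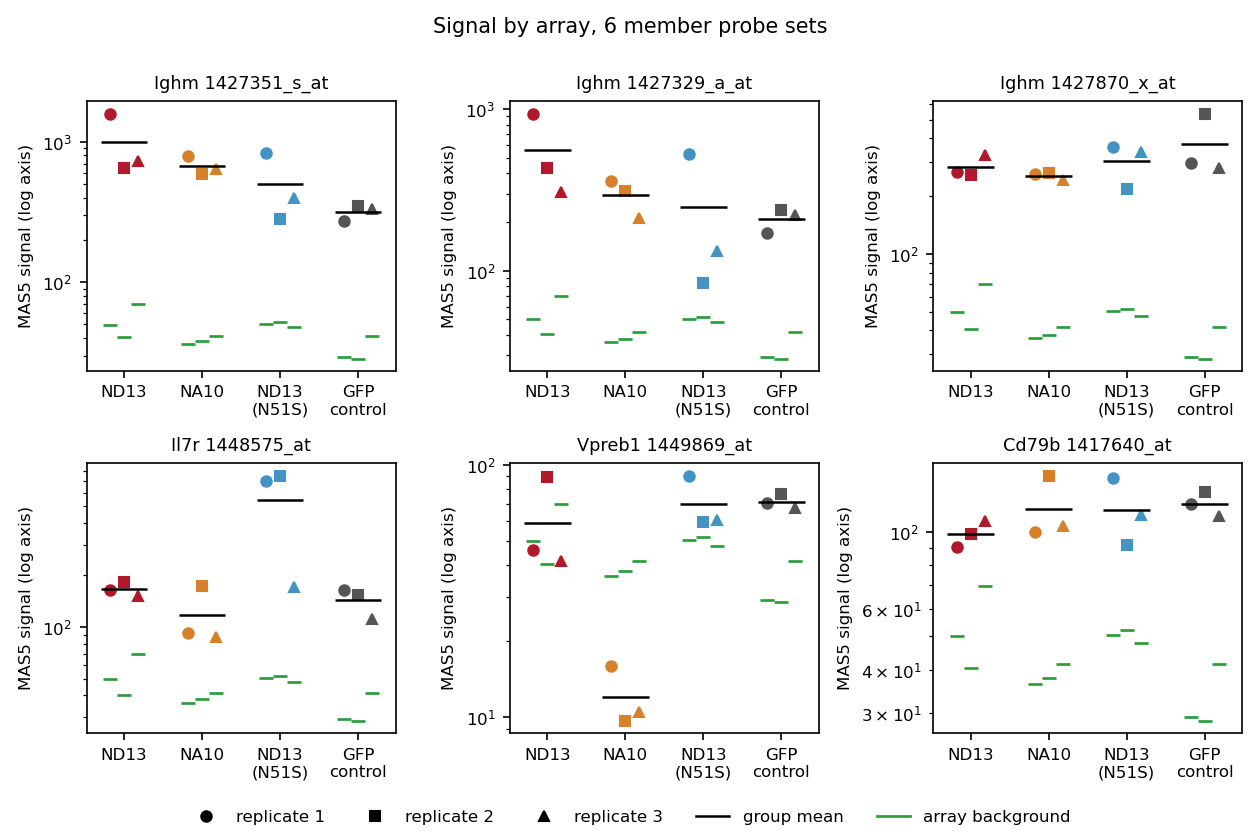
MAS5 signal (log axis) of 6 member probe sets on each array, by group; symbols are replicates 1 to 3, black lines group means (n = 3) and green lines the background of each array. Ighm 1427351_s_at was 589 to 1590 in ND13 and NA10, against 273 to 347 in the GFP control, Il7r was 703 and 755 on 2 arrays of ND13(N51S), and Vpreb1 was below background on all 3 NA10 arrays.

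The other Ighm probe sets did not all follow it. Probe set 1427329_a_at read 938, 432 and 308 in ND13, 361, 313 and 211 in NA10, 528, 84.2 and 132 in ND13(N51S), and 170, 237 and 221 in the GFP control. It correlated with 1427351_s_at at r = 0.88 over the 12 arrays, and ND13 was again above the GFP control on all arrays, at 1.27 ± 0.56 (unadjusted p = 0.042 in the limma fit, adjusted p = 0.83), and at 0.81 without ND13 replicate 1. Probe set 1427870_x_at, in contrast, read 268, 257 and 325 in ND13, 260, 264 and 241 in NA10, 360, 218 and 338 in ND13(N51S), and 297, 537 and 279 in the GFP control. Its log2 fold change of ND13 over the GFP control was -0.33 ± 0.28, and its r with 1427351_s_at was -0.14. Of the 8 Ighm probe sets annotated to that gene alone and not above background on all arrays, 1425385_a_at was past the unadjusted thresholds for both active fusions against both other groups (1.05 ± 0.47, and 0.66 without GFP control replicate 3), and 1427756_x_at, above background on 2 GFP control arrays only, was past them in the lower direction. The shared probe set 1427851_x_at read 74.8, 73.8 and 92.8 in ND13(N51S), against 63.6, 41.7 and 5.18 in the GFP control (1.74 on the log2 scale, adjusted p = 0.65, and 0.64 without GFP control replicate 3).

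Other immunoglobulin genes gave little signal. Of 40 probe sets for them, 2 were above background on all 12 arrays and 18 on none, and of the 32 for kappa or lambda light chains 6 were above background on 6 or more arrays. The genes most like Ighm 1427351_s_at in pattern were H2-DMa (r = 0.924), an MHC class II peptide-loading gene, Fbxw4 (0.913) and Spen (0.912). H2-DMa read 1076, 694 and 723 in ND13, 676, 765 and 523 in NA10, 916, 327 and 329 in ND13(N51S), and 237, 371 and 432 in the GFP control.

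Vpreb1 encodes 1 of the 2 parts of the surrogate light chain. Probe set 1449869_at read 16.0, 9.69 and 10.5 in NA10, against 70.3, 76.4 and 67.3 in the GFP control. It read 45.9, 89.2 and 41.6 in ND13, and 90.4, 59.3 and 60.6 in ND13(N51S). No NA10 array was above background, while all 3 arrays of ND13(N51S) and of the GFP control were, and NA10 lay below every other array of the series. With the background in place of the NA10 signal, NA10 was at least 1.85-fold lower than the GFP control and at least 1.78-fold lower than ND13(N51S). These bounds were not tested. The limma fit on the signals as read gave an adjusted p of 0.23 against the GFP control (0.16 with the block). Against ND13(N51S) it gave 0.23 (0.13 with the block). ND13 read higher than NA10 on all 3 arrays, but only 1 of them was above background, and no fold is given (adjusted p = 0.69). The shared Vpreb1 probe set, 1422416_s_at, read 47.7, 42.4 and 9.80 in NA10, against 69.5, 86.5 and 52.5 in the GFP control. It read 50.4, 16.1 and 23.9 in ND13, and 98.5, 9.94 and 19.7 in ND13(N51S), which spanned nearly the whole range. In pattern, Cyp3a11 (r = 0.890), Neurog3 (0.888) and Mark2 (0.867) were closest to Vpreb1 1449869_at, a description over 12 arrays, 5 of them with Vpreb1 below background.

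Igll1 encodes lambda 5, the partner of VpreB. Its probe set 1420176_x_at read 16.0, 92.3 and 125 in ND13, 56.3, 79.8 and 57.0 in NA10, 20.2, 91.6 and 65.2 in ND13(N51S), and 46.0, 81.7 and 49.3 in the GFP control. The groups overlapped throughout, and ND13 differed from the GFP control by 0.0 ± 0.75 on the log2 scale. NA10 differed from it by 0.16 ± 0.75. The second Igll1 probe set, 1420177_at, was above background on 1 to 5 arrays and averaged 33.2 in ND13, 12.7 in NA10, 24.1 in ND13(N51S) and 32.1 in the GFP control.

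The signalling chains varied little. Cd79b read 90.4, 98.5 and 107 in ND13 and 100, 145 and 104 in NA10. It read 143, 91.4 and 112 in ND13(N51S), and 120, 130 and 111 in the GFP control. Its log2 fold changes over the GFP control were -0.29 ± 0.29 in ND13, -0.07 ± 0.29 in NA10 and -0.08 ± 0.29 in ND13(N51S). Cd79a read 48.2, 63.2 and 52.4 in ND13, 56.0, 58.1 and 92.0 in NA10, 57.3, 82.3 and 63.2 in ND13(N51S), and 72.3, 71.9 and 89.4 in the GFP control. All 3 ND13 arrays were below all 3 GFP control arrays for both genes, although for Cd79a only 1 ND13 array was above background, and the difference was -0.51 ± 0.38. Blnk, the adaptor downstream of the receptor, read 77.3, 46.4 and 17.9 in ND13, 17.0, 83.8 and 29.7 in NA10, 121, 29.5 and 52.4 in ND13(N51S), and 87.2, 53.9 and 87.1 in the GFP control. Its pattern was most like that of Dntt 1449757_x_at (r = 0.884), the next gene on chromosome 19, and both were near background.

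Counts of members past the unadjusted thresholds were 0 to 4 of 29 in each direction of each comparison. For ND13 against the GFP control 2 of 29 were higher and 0 lower, where 3.43% of all probe sets were higher and 1.5% lower. For NA10 against the GFP control 1 was higher and 2 lower (2.51% and 1.52% of all), and for ND13(N51S) against the GFP control 2 were higher and 0 lower (4.37% and 2.48% of all). Against ND13(N51S), 2 were higher and 2 lower in ND13 (3.2% and 3.78%), and 0 higher and 3 lower in NA10 (2.94% and 4.85%). ND13 against NA10 gave 1 higher and 0 lower (1.98% and 1.34%). Both active fusions against both other groups gave 3 higher, all of Ighm, and 4 lower, of Il7r, Rag1, Ighm and Vpreb1 (2.48% and 2.87%). These comparisons share arrays, so their counts are not independent. By range alone, 5 of the 29 lay wholly lower in ND13 than in the GFP control, or 17.2%, where 5.37% of all probe sets did, and 2 wholly higher, or 6.9%, where 6.84% did. The 5 were those of Cd79a and Cd79b, Rag1, Dntt 1449757_x_at and the shared Vpreb1 probe set, of which Cd79b alone was above background on all 3 ND13 arrays. NA10 lay wholly lower than the GFP control in 4 of 29 and wholly higher in 1 (5.18% and 5.6% of all probe sets), and ND13(N51S) wholly higher than the GFP control in 2 and lower in 0 (8.5% and 3.45%). Set against ND13(N51S), ND13 lay wholly higher in 1 and lower in 2 (4.28% and 8.04%), and NA10 wholly higher in 1 and lower in 6 (4.3% and 9.4%). In 4 of these 6, and in 1 of the 2 lower in ND13, both groups were below background on all arrays. ND13 lay wholly higher than NA10 in 2, of which 1 was below background in both groups, and lower in 1 (5.4% and 4.0%).

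Over all 29 probe sets the median log2 fold change over the GFP control was -0.29 in ND13, -0.34 in NA10 and -0.05 in ND13(N51S), and over all probe sets it was 0.0, -0.01 and 0.07. Among the 17 probe sets above background on 6 or more arrays these medians were 0.0, -0.07 and -0.08. The medians over all 29 also turned with the arrays used: that of ND13 was 0.03 without GFP control replicate 1, and that of ND13(N51S) 0.22 without its replicate 2, while that of NA10 was -0.65 without its replicate 2.

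**Figure D3:**
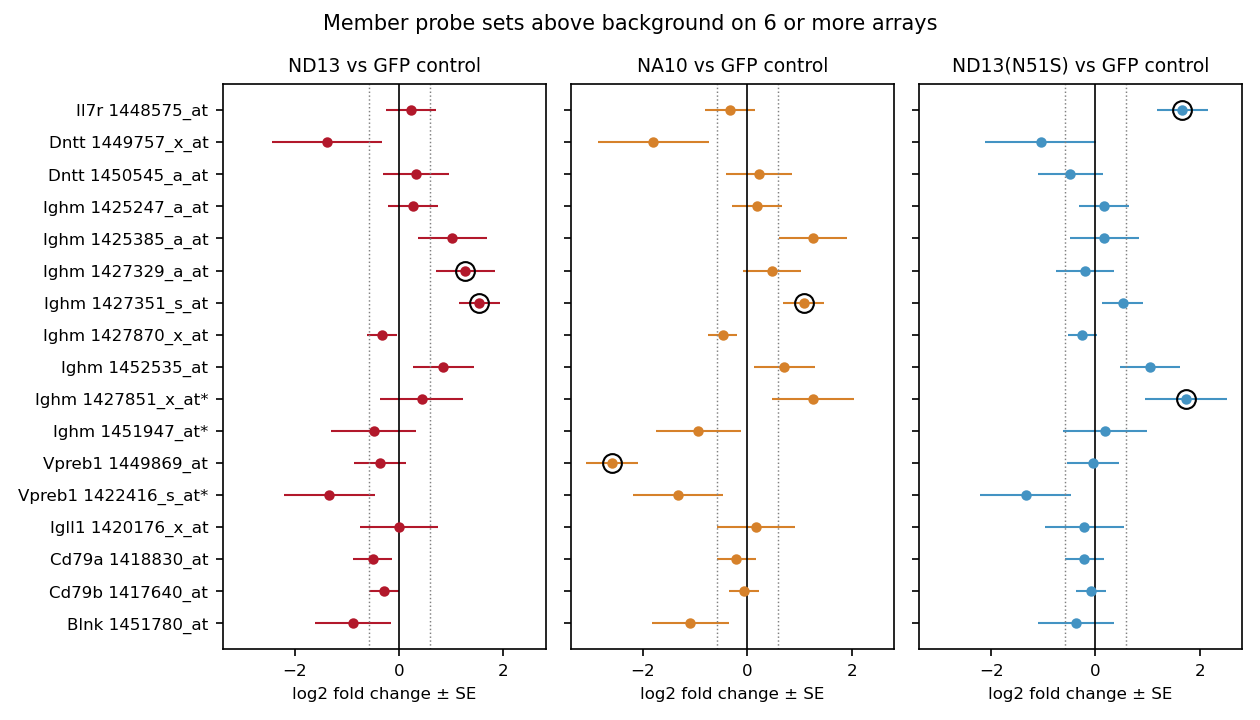
Log2 fold change over the GFP control, with its SE, of the 17 member probe sets above background on 6 or more arrays, in ND13, NA10 and ND13(N51S) (n = 3 arrays each); dotted lines mark 1.5-fold, open circles an unadjusted p under 0.05 with at least 1.5-fold, and asterisks probe sets shared with other genes. Ighm 1427351_s_at is circled in ND13 (1.54) and NA10 (1.08), Il7r 1448575_at in ND13(N51S) (1.67) and Vpreb1 1449869_at in NA10, and no point was a call by adjusted p.

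The wider program was read from lists of pathway genes and cell markers, in which no probe set passed the test in any of the 7 comparisons. The list counts below are read against the 3.43% higher and 1.5% lower of all probe sets in ND13, 2.51% and 1.52% in NA10, and 4.37% and 2.48% in ND13(N51S). Among the lymphoid receptors and priming genes (25 probe sets of 15 genes), 3 were past the unadjusted thresholds higher and 1 lower in ND13, 4 and 0 in NA10, and 1 and 2 in ND13(N51S), all against the GFP control. Lsp1, an actin-binding protein of leukocytes, read 2932, 1545 and 2565 in ND13 and 1193, 988 and 1257 in NA10. It read 1917, 980 and 1095 in ND13(N51S), and 471, 631 and 906 in the GFP control. All 9 arrays of the fusions lay above the GFP control, and the ND13 difference of 1.81 ± 0.32 missed the limma threshold at an adjusted p of 0.061 but passed it with the replicate block, at 0.023. Flt3, the receptor tyrosine kinase that marks lymphoid-primed progenitors, was named after its values were seen. It read 1743, 1235 and 1556 in ND13 and 1917, 1363 and 1197 in NA10, whereas it read 972, 524 and 521 in ND13(N51S), and 329, 983 and 637 in the GFP control. All 6 arrays of the active fusions lay above the other 6, at 1.26 ± 0.26 (adjusted p = 0.14), where 0.371% of all probe sets were wholly higher. Of the 3 probe sets of Jak1, the kinase of the interleukin-7 receptor, 1 read 301, 173 and 148 in ND13, against 86.2, 3.87 and 99.8 in ND13(N51S) (2.62 on the log2 scale, adjusted p = 0.56), and the difference was 1.09 without ND13(N51S) replicate 2. The other 2, above background on all 12 arrays, differed by 0.14 ± 0.26 and -0.34 ± 0.21. Ccr7, a lymphoid homing receptor, read 60.4, 95.2 and 56.9 in ND13, against 23.8, 13.5 and 8.59 in the GFP control (adjusted p = 0.84 in the limma fit). It read 24.9, 117 and 21.1 in ND13(N51S) and 3.95, 78.5 and 6.44 in NA10, so that both overlapped ND13 and the GFP control.

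Of the B lineage transcription factors (42 probe sets of 19 genes), 7 were past the unadjusted thresholds higher and 0 lower in ND13 against the GFP control, with a median log2 fold change of 0.46. The 7 were 3 probe sets of Mef2c (0.68, 0.89 and 0.91) and 1 each of Irf4, Irf8, Foxo1 and Bach2. In NA10 it was 1 each way (median 0.15), and in ND13(N51S) 2 higher and 0 lower (median 0.13). Ebf1 and Pax5, which set and keep B cell identity, were above background on no array, and neither was Erg. Irf4, a factor of pre-B cells and plasma cells, had 2 probe sets, of which 1 read 99.9, 43.4 and 128 in ND13, above background on all 3, against 13.1, 5.85 and 6.75 in the GFP control, all below it (adjusted p = 0.24). The other read 65.5, 52.5 and 72.3 in ND13, against 17.9, 69.4 and 12.8 in the GFP control, where replicate 2 was above background and the groups overlapped (1.32 ± 0.65). Spib read 59.7, 57.3 and 24.4 in NA10, against 114, 119 and 109 in ND13(N51S) (limma adjusted p = 0.40). It read 69.3, 53.6 and 41.6 in the GFP control, which overlapped NA10, and 85.9, 71.7 and 89.8 in ND13. Bach2, a repressor of plasma cell fate, read 81.4, 110 and 108 in ND13, against 17.0, 51.7 and 64.2 in the GFP control (adjusted p = 0.78). The Bach2 difference of 1.37 was 0.78 without GFP control replicate 1.

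Of the B cell surface markers (17 probe sets of 11 genes), 3 were past the unadjusted thresholds higher in ND13, 1 in NA10 and 4 in ND13(N51S), all against the GFP control, and 0 lower. Cd74, the invariant chain of MHC class II, read 3709, 1604 and 2244 in ND13, 1203, 920 and 486 in NA10, 4258, 1843 and 476 in ND13(N51S), and 644, 414 and 563 in the GFP control. ND13 lay wholly above the GFP control (2.16 ± 0.61, adjusted p = 0.41), while ND13(N51S) spread over the range of all other groups. Ms4a1, which encodes CD20, read 153, 136 and 103 in ND13(N51S), against 71.8, 63.4 and 61.0 in the GFP control (adjusted p = 0.62). Cd53 read 2249, 2635 and 3574 in ND13, against 1211, 1890 and 1780 in the GFP control (adjusted p = 0.71).

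Of the recombination machinery beyond the members (11 probe sets of 9 genes), 0 were past the unadjusted thresholds in ND13 or NA10 and 1 was higher and 2 were lower in ND13(N51S), against the GFP control. Hmgb2, a DNA-bending cofactor of the RAG proteins, read 738, 1046 and 938 in ND13(N51S), against 1566, 1293 and 1569 in the GFP control (-0.71 ± 0.22, adjusted p = 0.51). Its other probe set overlapped, at 1789, 2541 and 1952 in ND13(N51S), against 2747, 2412 and 2111 in the GFP control (-0.22 ± 0.22). Of the pre-B and B cell receptor signalling genes (25 probe sets of 15 genes), 1 was higher and 1 lower in ND13, 2 and 0 in NA10, and 2 and 3 in ND13(N51S). The 2 higher in NA10 were the 2 probe sets of Prkcb. The brighter, above background on all 12 arrays, read 149, 170 and 146 in ND13, and 189, 203 and 183 in NA10. It read 190, 300 and 150 in ND13(N51S), and 126, 96.1 and 68.4 in the GFP control. Each fusion lay wholly above the GFP control, at 0.72 ± 0.31, 1.03 ± 0.31 and 1.12 ± 0.31. The limma adjusted p was 0.81, 0.75 and 0.43 in the same order. The dimmer read 58.7, 50.9 and 83.0 in NA10, against 9.88, 24.4 and 5.41 in the GFP control. The B cell kinase Blk read 34.8, 31.3 and 16.0 in ND13, all below background, against 49.5, 110 and 169 in the GFP control, all above it. No fold is given (limma adjusted p = 0.78). In ND13(N51S) Blk read 13.1, 84.5 and 9.63, with only replicate 2 above background, and in NA10 54.9, 117 and 110. The receptor-proximal kinase Btk was above background on all 12 arrays, at 713 to 1980.

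**Figure D4:**
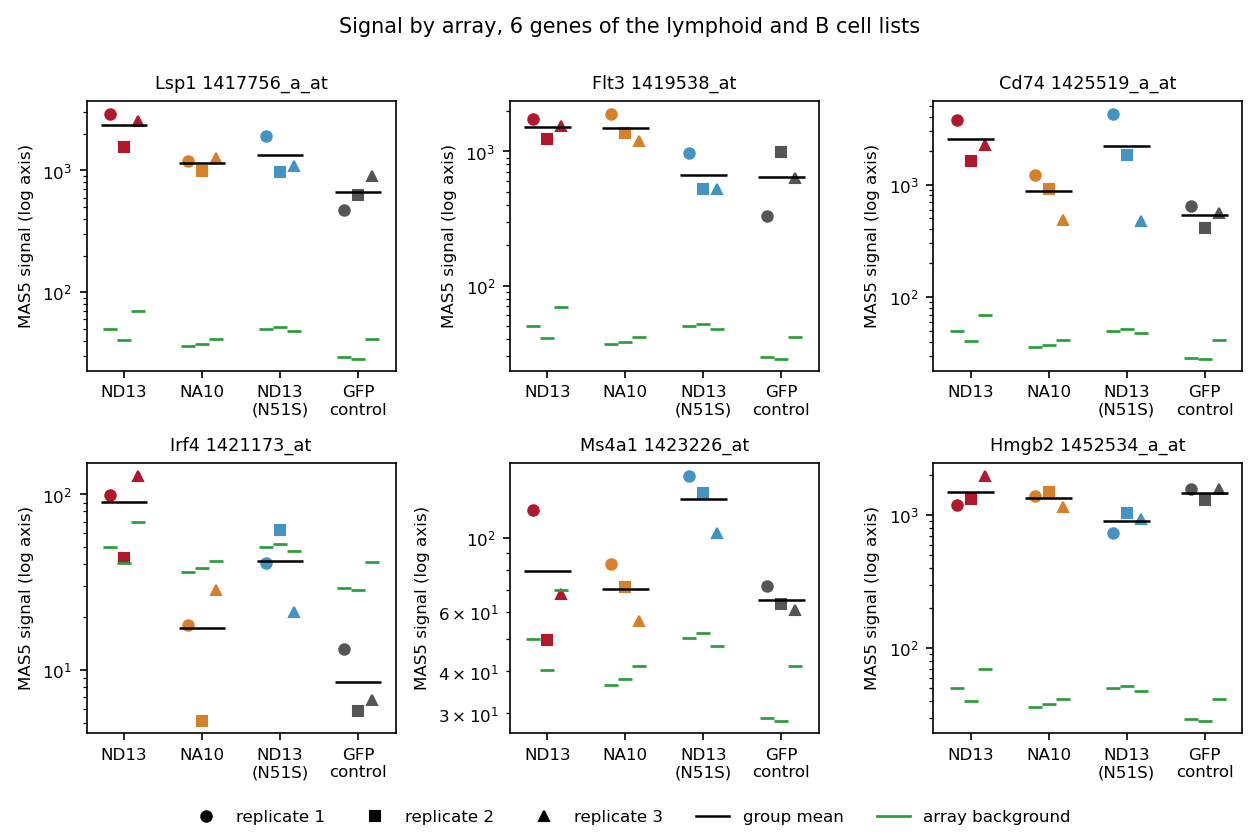
MAS5 signal (log axis) of 6 genes of the lymphoid and B cell lists on each array, by group; symbols are replicates 1 to 3, black lines group means (n = 3) and green lines array backgrounds. Flt3 was 1197 to 1917 in ND13 and NA10, against 329 to 983 in the other groups, the Irf4 probe set shown was above background on the 3 ND13 arrays and on ND13(N51S) replicate 2, and the Hmgb2 probe set shown was lowest in ND13(N51S).

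The markers of other cells gave the following counts past the unadjusted thresholds against the GFP control. T cell markers (22 probe sets) gave 0 higher and 3 lower in ND13, 0 and 1 in NA10, and 1 and 0 in ND13(N51S), and the probe set of Zap70, a T cell receptor kinase, that was above background on all 12 arrays read 555, 470 and 480 in ND13, against 615, 443 and 475 in the GFP control (-0.02 ± 0.21), while the other, above background on no ND13 array, was 1 of the 3 lower in ND13. Plasmacytoid dendritic cell markers (17) gave 0 and 1, 0 and 0, and 1 and 2 in the same order, and myeloid markers (17) gave 1 and 1, 1 and 0, and 4 and 1. Erythroid markers (11) gave 0 and 0, 1 and 0, and 1 and 2, and stem and progenitor markers of the gate (11) gave 1 and 1, 1 and 0, and 0 and 0. Fibroblast markers, which producer cells would bring, gave 0 and 0, 1 and 0, and 2 and 0. Their summed signal in ND13(N51S), 1641 to 2491, overlapped that in the GFP control, 1150 to 1750. It was wholly above that in ND13, 864 to 1412, and in NA10, 1048 to 1557, and the part of producer cells in these differences was not tested. The summed myeloid signal was 31454 to 34997 in ND13(N51S), against 22724 to 28251 in the GFP control, and the summed B cell surface signal was 17157 to 25549 in ND13(N51S), against 15685 to 16466 in the GFP control. In ND13, where Il7r overlapped the GFP control, the B cell surface sum was also wholly higher, at 18394 to 22960. That sum includes Cd53, Cd74 and Ptprc, of which Ptprc is also a marker of the gate. The myeloid sum was highest in ND13(N51S) replicate 3, the array of that group with the lowest Il7r signal, and the part of these cells in the Il7r signal was not tested.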

How the data were processed

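Values were MAS5 signal intensities on a linear scale, deposited by the authors for 22690 probe sets of 12 arrays and scaled to a common trimmed mean (500.16 to 500.19). They were not scaled again. The members and lists were chosen with earlier results of these data known. Of the 22626 probe sets tested, after 64 controls were left out, 20380 carried 1 gene, 691 several and 1555 none. Signals were put on the log2 scale (floor 0.01) and fitted with limma 3.58.1 in R 4.3.3 (lmFit, eBayes with trend and robust) on all 4 groups, with a mean of 13.4 degrees of freedom. Within each comparison p-values were adjusted over the 22626 probe sets (Benjamini-Hochberg). The fit was tested on simulated data. Precision rests on 3 arrays per group, from separate experiments per the methods. The experiment records of 2 arrays gave sample notes only.

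Named genes were all members, at most 3 genes per list (called first, then the largest change past the unadjusted thresholds without overlap of the groups, with the brighter group above background), and the 3 genes most like each member. Other genes, such as Flt3, Cd8a, Btk, Mpo and Mef2c, were named outside this rule. Some that it picked, such as Polm, Nhej1 and Ptpn6, are not described. Arrays of the same replicate number deviated together over the brighter probe sets (r = 0.106 to 0.596, against -0.422 to 0.107 for different numbers). The main fit left this pairing out, so its SEs and p-values ignore it. The fit with the number as a block takes it into account. Alternatives were the replicate block, each array left out, both arrays in doubt left out, a filter on dim probe sets, a background floor, a pseudocount of 41.5, median centring, quantile normalisation, eBayes without trend and robust, 1 probe set for each gene, fitting the compared groups alone, and the methods' t-test. Plots used Python 3.11.15 and matplotlib 3.10.9.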

Additional observations from a re-analysis of the deposited data

How the results depend on the processing

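The fit with the replicate number as a block called 0 member probe sets in each of the 7 comparisons, as did the fit without it, and of the list genes named here it changed the call of Lsp1 in ND13 against the GFP control only (log2 fold change 1.81, adjusted p = 0.023). With the block, 1 member was past the unadjusted thresholds higher in ND13(N51S) than in the GFP control, against 2 without it. The 4 member calls of any setting that kept all arrays came from the background floor in ND13 against the GFP control (Ighm 1427351_s_at, Rag2 and 2 dim Ighm probe sets). This setting raised the calls over all probe sets to 3039 higher, against 19 without the floor. In ND13(N51S) against the GFP control it gave 2 higher. The floor lifts dim signals to each array's own background. That background was 49.9, 40.5 and 69.8 in ND13, 50.4, 51.9 and 47.8 in ND13(N51S), and 29.2, 28.5 and 41.5 in the GFP control. The part of background in these calls was not tested. That floor gave 7 members past the unadjusted thresholds higher in ND13 and 6 in ND13(N51S), and 1 lower in NA10, against the GFP control, 1 lower in ND13 against ND13(N51S), and 1 lower in both active fusions against both other groups. It also turned the direction of dim probe sets: Rag1 was at 0.06 in ND13 against ND13(N51S) and at 0.06 in both active fusions against both other groups, Ighm 1427756_x_at at 0.02 in NA10 against the GFP control and 0.04 in the pooled comparison, and Zap70 at 0.05 in ND13 against the GFP control. Quantile normalisation, median centring, the filter on dim probe sets, fits of only the groups compared and 1 probe set per gene each left 1 member higher in ND13(N51S) than in the GFP control. The dim filter, which removes probe sets, gave 0 lower in NA10 against the GFP control, 1 lower in ND13 and 1 in NA10 against ND13(N51S), 0 higher in ND13 against NA10, and 1 lower in the pooled comparison, where the pseudocount gave 2. With 1 probe set per gene, which drops all but 1 of Ighm, the counts were 1 higher in ND13 and 1 lower in NA10 against the GFP control, 1 higher in ND13 against ND13(N51S), and 1 higher in the pooled comparison. Plain eBayes gave 1 higher in ND13 against the GFP control and 2 higher in ND13 against NA10, and a fit of only the groups compared 0 higher in ND13 against ND13(N51S). The methods' t-test gave 0 higher in ND13 and 0 in ND13(N51S) against the GFP control, 1 higher and 1 lower in ND13 and 1 higher in NA10 against ND13(N51S). The median over the members turned with the background floor, to 0.36 in ND13 and 0.06 in NA10 against the GFP control, and with the dim filter, which kept 4 members, to 0.75 and 0.07. Where no construction is named, the cause was not tested.

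Without both arrays in doubt, 3 members were higher in NA10 and 1 lower in ND13(N51S) against the GFP control, 1 higher and 1 lower in ND13, and 1 higher in NA10, against ND13(N51S), all at the unadjusted thresholds, with 0 calls. Leaving out each array in turn gave 0 to 1 member calls in ND13(N51S) against the GFP control (higher), and 0 to 1 in ND13 and 0 to 1 in NA10 against ND13(N51S) (lower), each call being Il7r without ND13(N51S) replicate 3, and 0 in the other comparisons. At the unadjusted thresholds these refits gave 1 to 3 higher and 0 to 2 lower in ND13, 0 to 3 and 1 to 5 in NA10, and 1 to 4 and 0 to 2 in ND13(N51S), against the GFP control. Against ND13(N51S) they gave 0 to 2 higher and 1 to 3 lower in ND13, and 0 to 2 and 2 to 4 in NA10; ND13 against NA10 gave 1 to 2 and 0 to 1, and the pooled comparison 1 to 3 and 3 to 6. The arrays behind the ends of these ranges were GFP control replicate 1 (3 higher in ND13, 3 in NA10 and 4 in ND13(N51S) without it), ND13 replicate 1 (1 higher without it), ND13 replicate 3 (2 lower), NA10 replicates 1 and 2 (0 higher without replicate 1, 5 lower without replicate 2) and ND13(N51S) replicate 1 (2 lower against the GFP control). Array number and signal over background limit these results: only 5 of the 29 probe sets were above background on all 12 arrays.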
